A study of Mus musculus with 55 samples.

Results

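The genes of the translation initiation factors were followed through 4 RNA-seq experiments on mouse oocytes. They were chosen by name: every gene of the count table that starts with Eif and a digit, without the eIF2 alpha kinases (Eif2ak), the old Argonaute names (Eif2c), the eIF4E-binding proteins (Eif4ebp), Eif4enif1 and entries marked as pseudogenes. This gave 46 of 33924 genes, after 17 of 63 genes with such a start were left out. All 46 were found with identical exons in the second table, which held the Trim experiment. Of the 46 genes, 45 passed the filter on low counts in every comparison. Eif2s3y, the Y-linked copy of the eIF2 gamma gene, had 0 counts in all 24 libraries and was not tested.

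The cells were oocytes from mouse ovary, and the labels' protocol names growing oocytes of control and Dhx36fl/fl;SKO mice. Growing control (3 libraries) was compared with growing Dhx36_sko (3 libraries). A second experiment, called the DRB experiment here, held control oocytes labelled c (2 libraries), c with the agent DRB (1 library used), rhau-sko (1 library used) and rhau-sko with DRB (2 libraries). Another experiment held oocytes labelled GV, as GV-C (3 libraries) and as GV with the agent cPDS for 12 h (3 libraries). GV-C carries no time in its labels. In the last, labelled Dhx36 3h Trim21 (3 libraries) and Dhx36 3h control (3 libraries), Trim21 was compared with control at 3 h. In this field cPDS is the usual short name of carboxypyridostatin, a ligand of RNA G-quadruplexes, and DRB that of an inhibitor of transcription elongation. RHAU is another name of DHX36, an RNA helicase that unwinds G-quadruplexes, which are 4-stranded folds of G-rich RNA or DNA. TRIM21 is an antibody-binding ubiquitin ligase used in Trim-Away to remove antibody-bound proteins. The Cre driver behind the letters SKO, the meaning of the letters cPDS and DRB, the age of the mice, the number of oocytes in a library and whether replicates came from separate animals were not given in the sources used here. The p-values therefore measure the spread between these libraries, which may be technical.

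The libraries used held 7452742 to 65444652 counts, and the initiation factor genes took 0.79% to 0.953% of them. One c with DRB library and one rhau-sko library, with 129192 and 127927 counts, were left out by a minimum of 200000. Dhx36 itself fell by 2.01 ± 0.24 on the log2 scale (± SE) in growing sko, by 2.72 ± 0.17 in rhau-sko of the DRB experiment and by 1.99 ± 0.18 with Trim21, and rose by 0.73 ± 0.10 with cPDS. Trim21 itself was 9.17 ± 0.13 higher on the log2 scale in the Trim21 libraries. All 10 oocyte markers were counted in every group. A list of 13 granulosa and cumulus genes, which mark the follicle cells around an oocyte, summed to 24.7 to 152 normalised CPM (CPM on library sizes scaled with edgeR's TMM factors within each experiment) against 15287 to 41031 for the oocyte markers. Its values stand beside the sko, cPDS and Trim21 comparisons, and its calls beside the others. The 8 theca and stroma genes summed to 1.11 to 7.86 and the 8 genes of immune, endothelial and blood cells to 8.66 to 59.3. Both haemoglobin genes, Hbb-b1 and Hba-a1, had counts in growing control, and Hba-a1 had counts in the Trim controls. They were at 0 in all other groups.

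Translation initiation is the step at which a ribosome finds the start codon of an mRNA. The factor eIF4E binds the cap of the mRNA and joins the scaffold eIF4G and the RNA helicase eIF4A, while eIF2 brings the initiator tRNA to the small ribosomal subunit, where eIF1, eIF1A, eIF3 and eIF5 assist in scanning and start codon choice. eIF2B recharges eIF2 with GTP, eIF5B helps the large subunit to join, and eIF6 keeps free large subunits from joining too early. Growing oocytes store much of their mRNA, and after growth their transcription falls silent, so that later changes in protein depend on which stored mRNAs are translated or removed.

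Because the study concerns G-quadruplexes, the DNA before the start of 4 members that moved with cPDS is shown: the 2 largest falls of members whose exons share no bases with another gene (Eif5a and Eif4b), and the 2 largest rises apart from the sparsely counted Eif5a2 (Eif5 and Eif1). This choice was made after the values were seen. The sequences are the 250 bases before the start in RefSeq's annotation, build GRCm38.p6, on the gene's strand from 5′ to 3′. Capitals mark runs of 3 or more G.

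Eif5a, chr11:69921959-69922208, minus strand: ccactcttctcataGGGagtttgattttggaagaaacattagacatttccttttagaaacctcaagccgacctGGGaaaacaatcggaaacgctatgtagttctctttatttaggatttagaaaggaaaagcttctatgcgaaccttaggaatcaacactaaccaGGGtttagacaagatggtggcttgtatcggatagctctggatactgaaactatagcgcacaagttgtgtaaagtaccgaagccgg
Eif4b, chr15:102073523-102073772, plus strand: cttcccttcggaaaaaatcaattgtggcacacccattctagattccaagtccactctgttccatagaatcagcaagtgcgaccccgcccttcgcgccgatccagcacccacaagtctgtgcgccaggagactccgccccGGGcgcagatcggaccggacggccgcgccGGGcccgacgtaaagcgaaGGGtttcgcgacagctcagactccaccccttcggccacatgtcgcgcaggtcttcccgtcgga
Eif5, chr12:111537851-111538100, plus strand: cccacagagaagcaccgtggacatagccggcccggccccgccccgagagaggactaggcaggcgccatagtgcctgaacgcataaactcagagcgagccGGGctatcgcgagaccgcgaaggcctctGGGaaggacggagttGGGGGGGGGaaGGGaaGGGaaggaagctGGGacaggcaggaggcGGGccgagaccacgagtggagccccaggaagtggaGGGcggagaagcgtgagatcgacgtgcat
Eif1, chr11:100319699-100319948, plus strand: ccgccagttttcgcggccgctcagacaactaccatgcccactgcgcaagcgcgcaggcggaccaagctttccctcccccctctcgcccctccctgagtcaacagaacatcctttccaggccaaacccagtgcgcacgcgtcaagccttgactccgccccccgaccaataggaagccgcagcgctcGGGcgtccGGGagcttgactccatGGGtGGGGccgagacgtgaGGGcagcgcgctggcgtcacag

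The Eif5a window held 3 such runs on the gene's strand, 0 on the other strand and 41.2% G or C. The Eif4b window held 3 runs on the gene's strand, 9 on the other strand and 62.0% G or C. In the Eif5 window 8 runs were found on the gene's strand and 5 on the other strand, with 66.4% G or C. The Eif1 window held 5 runs on the gene's strand, 7 on the other strand and 66.8% G or C. The canonical G-quadruplex motif, written as 4 runs of at least 3 G with 1 to 7 bases of any kind between them, was searched on both strands. A base between runs could itself be G, so a longer run counted once above could serve as more than 1 run here. The Eif5 window matched on the gene's strand, only with its longest run of G taken as more than 1 run. The Eif1 window matched on the other strand. Neither the Eif5a nor the Eif4b window shown matched, and 1 of the 6 RefSeq start windows of Eif5a did. RefSeq start windows were used for 36 of the 46 members. Windows on chromosome 18, where Eif1a lies, were left out for the members but kept for all genes. Of these 36 genes, 10 had a match on either strand, or 27.8%, against 18.5% of the 27025 genes of the table. Among the members called higher with cPDS 6 of 11 had one, and among those called lower 3 of 17. The same split was not made for all genes called with cPDS, so these counts have no background. Whether a match goes with the direction of change was not tested. Member windows had a median of 61.2% G or C against 52.4% for all windows, so the share with a match was not compared at equal base composition. The match describes the DNA before the gene, not the mRNA.

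Levels of different genes were compared per kilobase of exon, as normalised CPM divided by the deposited exon length. The highest member was not the same in the 4 control groups. It was Eif1b, which encodes a close copy of the start codon scanning factor eIF1, in growing control at 388 per kb. In c and GV-C it was Eif2b1, the alpha subunit of eIF2B, at 320.1 and 349, followed by Eif4e, the cap-binding protein, at 309 and 311. In the Trim controls it was the eIF3 subunit gene Eif3k at 374, just above Eif1b at 369.6. As means over the 4 groups, which were normalised separately, the lowest members with counts were Eif5a2, the second eIF5A gene, at 0.481, Eif2b5, the catalytic epsilon subunit of eIF2B, at 2.67, Eif2s3x, the X-linked eIF2 gamma gene, at 3.53 and Eif1a, one of the eIF1A genes, at 3.87. The 5 eIF2B subunits, which work in 1 complex, thus spanned from 2.67 to 287 per kb in these means. The median member stood at 30.5 per kb in growing control, 30.7 in c, 35.3 in GV-C and 34.4 in the Trim controls.

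**Figure D1:**
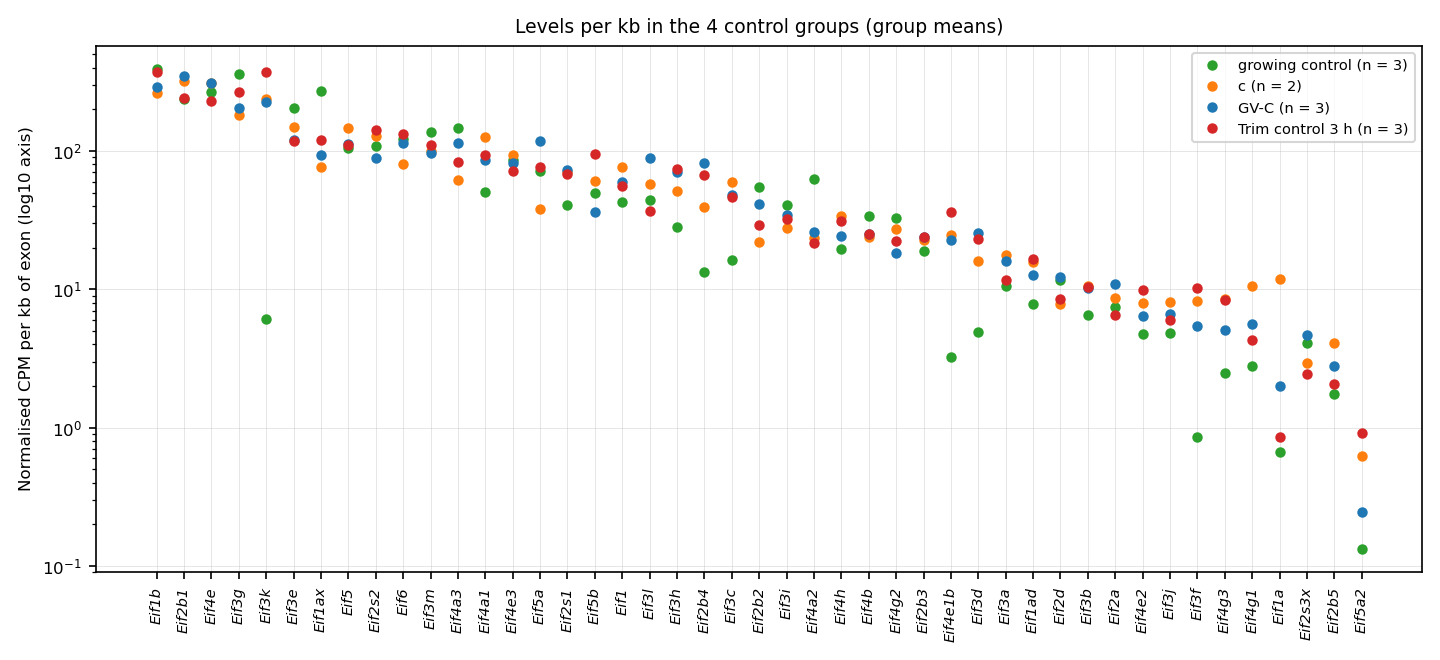
Mean normalised CPM per kb of exon (log10 axis) of the 45 members with counts, ordered by their mean over the control groups, in growing control (3 libraries), c (2), GV-C (3) and Trim control 3 h (3). Most members lie close together in the 4 groups, while Eif3k, Eif4e1b and Eif3f lie far lower in growing control.

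Some members differed widely between the control groups. Eif3k was at 4.96, 7.46 and 7.10 normalised CPM in the 3 growing control libraries, at 249 and 260.2 in c, at 223, 261 and 239 in GV-C and at 389, 394 and 423 in the Trim controls. Eif4e1b, the oocyte form of eIF4E, was at 6.07, 7.06 and 8.90 in growing control, and at 47.7 to 85.8 in the 8 other control libraries. Eif3f, an eIF3 subunit, was at 2.45 to 2.52 in growing control and at 14.7 to 30.8 in the others. Eif1a, at 0.668 per kb in growing control, 0.857 in the Trim controls and 2.00 in GV-C, was at 11.9 per kb in c. The pair of eIF4A helicases changed order: per kb, the ratio of Eif4a1 to Eif4a2 was 0.818 ± 0.158 (SD, n = 3) in growing control, 5.52 ± 1.08 (n = 2) in c, 3.36 ± 0.232 (n = 3) in GV-C and 4.34 ± 0.0137 (n = 3) in the Trim controls. Eif1ax, the X-linked eIF1A gene, stood at 1399 to 1452 in growing control and at 379.7 to 632 elsewhere. These groups were normalised separately, and the oocyte's stage and the experiment cannot be told apart, so no test was made.

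Treatment of GV oocytes with cPDS for 12 h went with changes in most of the set. The labels give no time for GV-C, so the agent and the 12 h cannot be told apart. Of the 45 members, 13 rose and 24 fell (edgeR quasi-likelihood test, Benjamini-Hochberg adjusted p under 0.05, called here), or 82.2%, where 50.8% of all 16115 genes tested were called, 23.4% higher and 27.4% lower. These shares were not compared at equal abundance. The members' median log2 change was -0.28, and that of all genes 0.01. Libraries of the groups did not overlap in 15 members that were higher and 24 that were lower with cPDS, against 27.4% and 30.7% of all genes. Of the 24 called lower, Eif3j alone overlapped. In 8 of the 45 members a called change was at least 1 on the log2 scale in either direction, against 14.3% of all genes. In these bulk libraries, less RNA in each cell and a loss of cells from the pool cannot be told apart. The 13 granulosa and cumulus genes summed to 111 to 113 normalised CPM in GV-C and to 90.9 to 104 with cPDS, with 2 of 10 tested higher and 2 lower and Ptx3 at 0 in both groups. The 10 oocyte markers summed to 25106 to 27562 in GV-C and to 32795 to 36840 with cPDS, with 8 higher and 2 lower. The 8 immune, endothelial and blood genes summed to 55.3 to 59.3 and to 15.2 to 16.2, of which Pecam1 made a mean of 55.4 in GV-C and 13.6 with cPDS. The part of any of these lists in the members' changes was not tested.

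The largest fall was that of Eif5a, which encodes the hypusine-bearing factor that helps ribosomes at start and at stalling sequences. Its values were 282, 270.0 and 291 normalised CPM in GV-C and 17.6, 16.6 and 12.3 with cPDS. The groups lay far apart, with a log2 change of -4.19 ± 0.12 (SE, adjusted p = 1.16e-12), or 0.0546 times the control level. Eif5a2 was near the floor at 1.40, 1.10 and 1.22 (66 to 92 counts a library) and stood at 1.81, 2.98 and 2.70 with cPDS (71 to 169 counts), a log2 change of +1.00 ± 0.25 (adjusted p = 0.00305). Eif6, which holds the large subunit apart, was at 299, 305 and 328 in GV-C. With cPDS it was at 125, 111 and 109.7, a log2 change of -1.43 ± 0.07 (adjusted p = 3.24e-10).

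**Figure D2:**
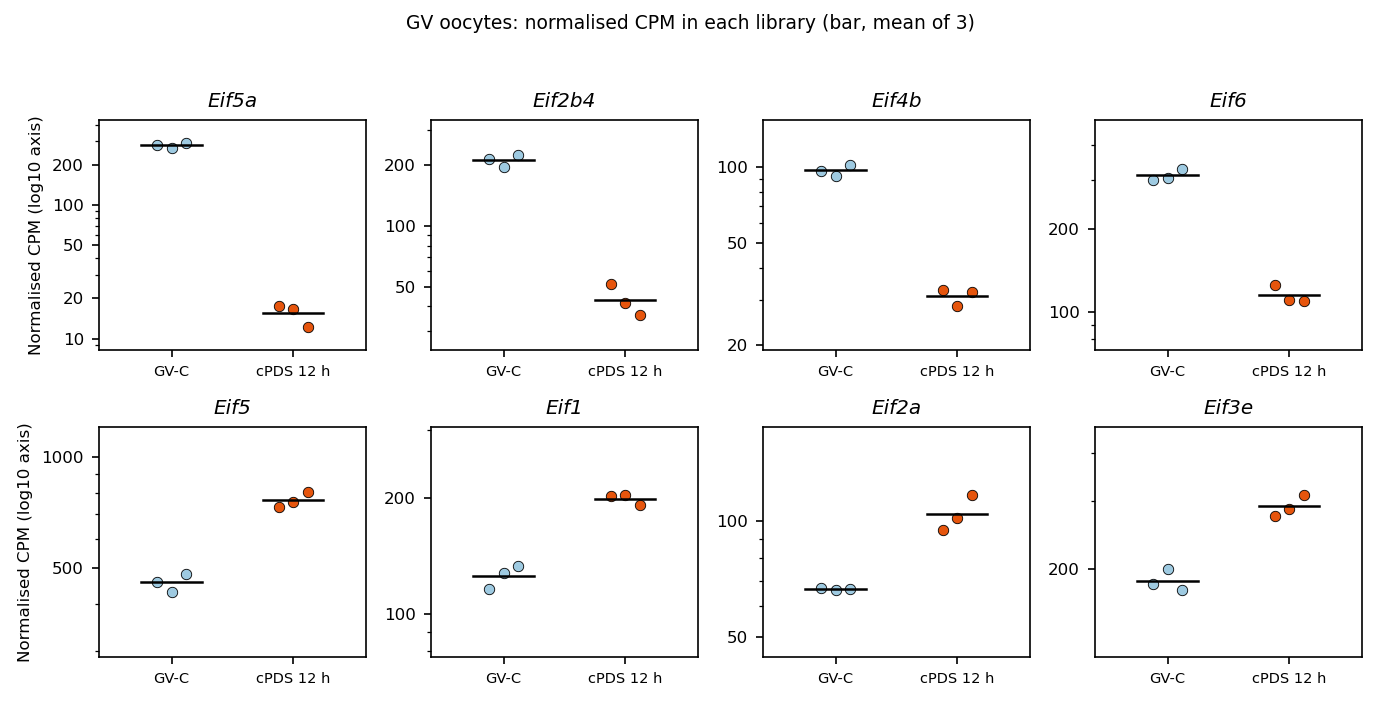
Normalised CPM (log10 axis, its range set for each gene) of 4 members that fell and 4 that rose, in the 3 GV-C and the 3 cPDS libraries, each point 1 library and the bar their mean. The groups do not overlap in any panel, and Eif5a falls from 270.0 to 291 down to 12.3 to 17.6.

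Among the eIF2B subunits 4 of 5 fell and 1 rose. Eif2b4, the delta subunit, was at 216, 197 and 225 in GV-C and at 51.4, 41.3 and 36.2 with cPDS, a log2 change of -2.31 ± 0.11 (adjusted p = 1.36e-10). Its exons share bases with Snx17 on the other strand, which changed by -2.81 in the same comparison. The strand setting of the counting is not given in the sources used here, so reads of this pair cannot be told apart. The same holds for Eif2a with Serp1, Eif2d with Rassf5, Eif3d with Gm17638, Eif3j with Spg11, Eif3m with Ccdc73, Eif4a2 with Rfc4, Eif5a2 with Gm17485, Eif5b with Rev1 and Eif6 with Gm16098, while exons of Eif4e3 share bases with Foxp1 on the same strand. Eif2b2 and Eif2b5 fell by 0.74 each, and Eif2b3 by 0.28. Eif2b1, the most abundant of the 5, was at 897 to 899.8 in GV-C and at 1188 to 1214 with cPDS, a log2 change of +0.41 ± 0.05 (adjusted p = 1.02e-05). For eIF2, the substrate of this complex, Eif2s1 rose by 0.20 ± 0.06 (adjusted p = 0.0140), while Eif2s2 and Eif2s3x were not called. The Eif2s1 call was lost without GV-C replicate 3 (0.0601) and without cPDS replicate 3 (0.0594).

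On the cap-binding side 1 of the 4 eIF4E genes rose and 3 fell, and of the 5 genes of eIF4A, eIF4B and eIF4H none rose and 4 fell. Eif4b, whose protein stimulates the eIF4A helicase, was at 96.2, 92.4 and 102 in GV-C and at 32.8, 28.5 and 32.1 with cPDS, a log2 change of -1.64 ± 0.08 (adjusted p = 2.79e-10). Eif4a2 was at 147, 134 and 132 and then at 74.8, 75.7 and 73.3, a log2 change of -0.88 ± 0.07. Eif4a1 (-0.49 ± 0.06) and Eif4h (-0.45 ± 0.09), a partner of the helicase, were lower as well, and Eif4a3, a core part of the exon junction complex, was not called at -0.14. Of the 4 cap-binding genes, Eif4e3 fell most, from 452, 473 and 483 to 195, 198 and 188, a log2 change of -1.28 ± 0.06. Eif4e1b fell from 47.7, 56.7 and 49.5 to 31.6, 29.2 and 30.3, a change of -0.76 ± 0.09, and Eif4e2 by 0.37. Eif4e itself rose, from 859 to 938 in GV-C to 1046 to 1180.1 with cPDS, a change of +0.31 ± 0.06 (adjusted p = 0.000638).

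The 3 eIF4G genes went apart. Eif4g1, the main scaffold, was at 39.7, 40.7 and 40.4 in GV-C and at 20.4, 24.1 and 19.5 with cPDS, a log2 change of -0.92 ± 0.10 (adjusted p = 1.00e-06). Eif4g2, a shorter relative that lacks the eIF4E-binding part and acts in cap-independent initiation, was at 176, 184 and 184 and then at 239.8, 281 and 304, a change of +0.60 ± 0.08 (adjusted p = 1.47e-05). Eif4g3 was not called at +0.11 ± 0.08. Per kb, the ratio of Eif4g2 to Eif4g1 was thus 3.28 ± 0.0447 (SD, n = 3) in GV-C and 9.46 ± 1.63 (n = 3) with cPDS. Shorter snoRNA genes lie in the exons of Eif4g2, Eif4a1 and Eif4a2 on the same strand.

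In eIF3, the scaffold of 13 subunits around the small subunit, 4 genes rose and 6 fell. Eif3g was at 207, 224 and 223 in GV-C and at 115, 95.7 and 84.1 with cPDS (log2 change -1.15 ± 0.09). Eif3a, the largest core subunit, was at 85.5, 83.1 and 80.8 and then at 48.1, 38.8 and 43.5 (-0.93 ± 0.09). Eif3d, which can bind caps, fell by 0.76 ± 0.09, and Eif3h, Eif3j and Eif3c by 0.53, 0.55 and 0.18. Eif3e was at 182, 199 and 177 and rose to 274, 287 and 311 (+0.64 ± 0.07), with Eif3l at +0.47, Eif3m at +0.35 and Eif3k at +0.29. Levels of subunits of 1 complex therefore moved in both directions. Eif3c was not called without GV-C replicate 2 or 3 or any 1 cPDS library (adjusted p from 0.0786 to 0.114).

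Of the 5 genes of eIF1 and eIF1A 2 rose and 3 fell, and of Eif5 and Eif5b 1 rose and 1 fell. Eif5, which triggers GTP hydrolysis by eIF2, was at 460.3, 431 and 483 in GV-C and at 732, 754 and 803 with cPDS, a log2 change of +0.74 ± 0.06 (adjusted p = 1.48e-07). Eif1 was at 116, 128 and 133 and then at 203, 204 and 191, a change of +0.67 ± 0.07 (adjusted p = 1.42e-06). Its close copy Eif1b fell by 0.45 ± 0.09. Per kb, the ratio of Eif1b to Eif1 was 4.81 ± 0.101 (SD, n = 3) in GV-C and 2.21 ± 0.249 (n = 3) with cPDS. Eif1ad, which encodes a protein with an eIF1A-like domain that acts in ribosome assembly, fell from 32.8, 30.6 and 31.1 to 13.2, 14.6 and 14.7 (-1.15 ± 0.09). Eif1ax rose by 0.27 and Eif1a fell by 0.43, a call lost without GV-C replicate 1 or cPDS replicate 1 or 2 (adjusted p from 0.0530 to 0.144). Reads of Eif1 and Eif1b, of Eif1a and Eif1ax and of Eif4a1 and Eif4a2 could be shared between the close copies. The same holds for members with copies marked as pseudogenes. Of these, Eif4a-ps4 held 13184 counts over 18 libraries and Eif3s6-ps2 held 3743. Eif2a, a factor that can carry initiator tRNA without eIF2, was at 67.2, 66.3 and 66.5 and then at 94.6, 102 and 117 (+0.65 ± 0.08), and Eif5b fell by 0.53 ± 0.09.

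**Figure D3:**
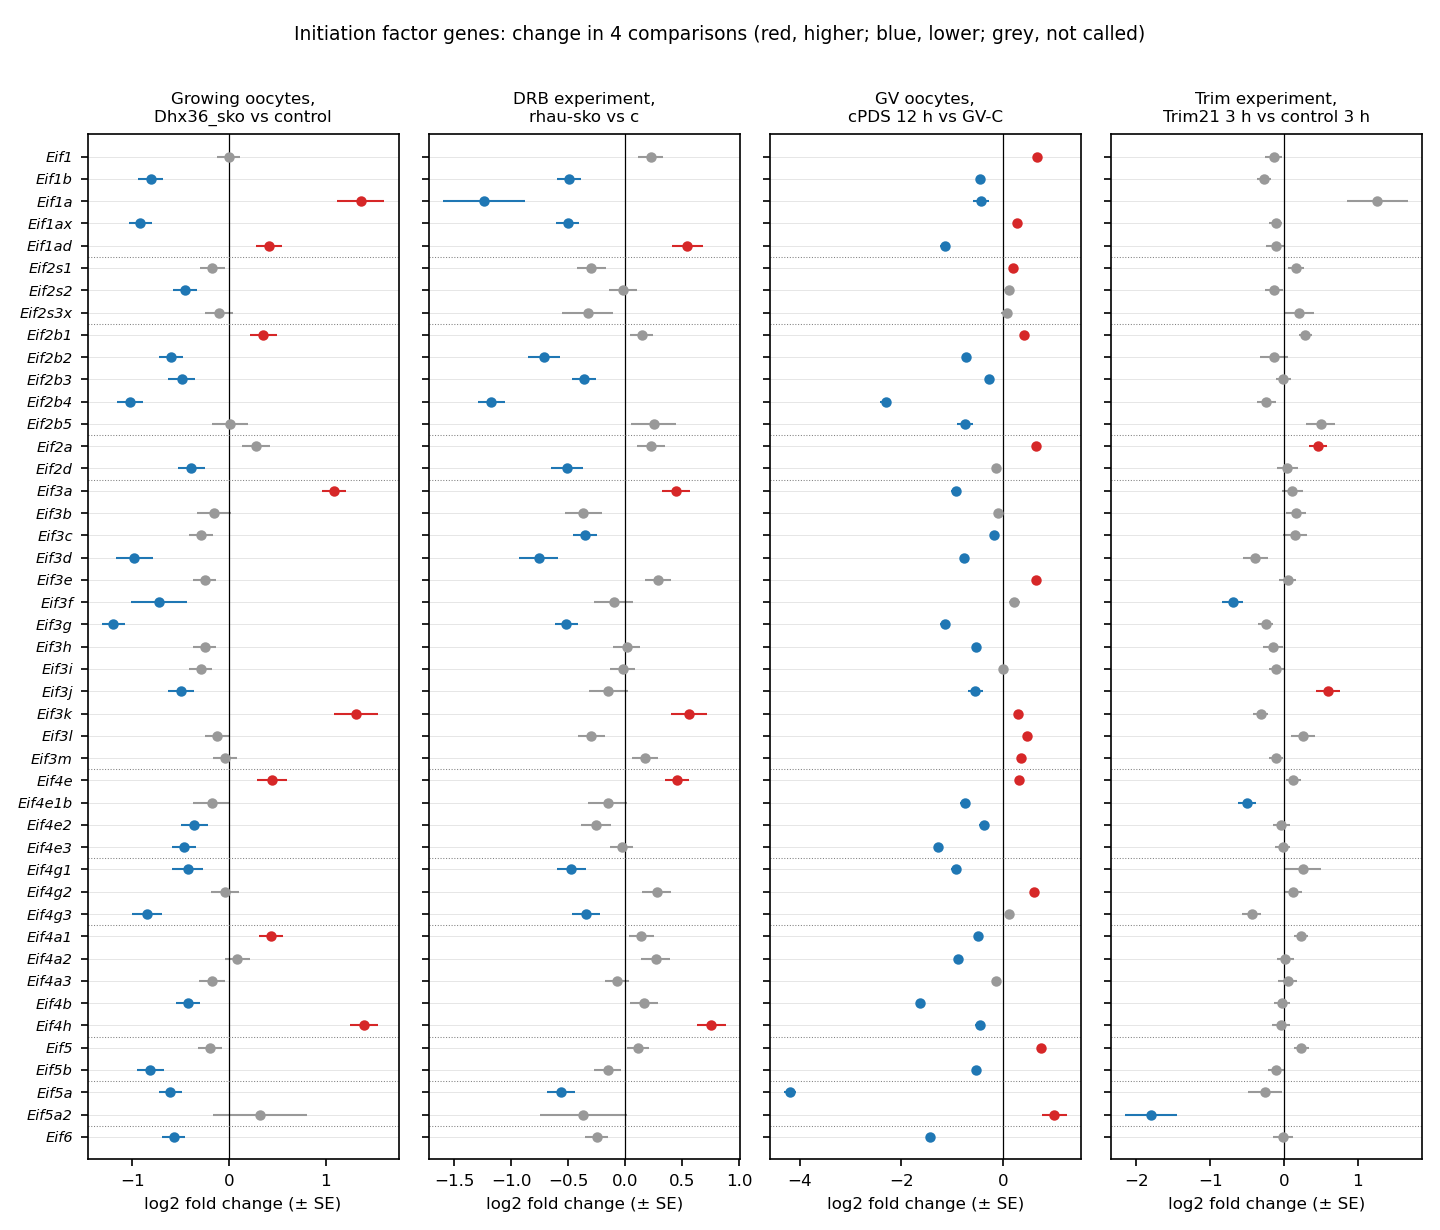
Log2 fold change (± SE) of the 45 tested members, grouped by role with dotted lines, in the 4 comparisons of 3 libraries against 3. Red and blue points are called higher and lower at an adjusted p under 0.05, grey points are not called, and each panel has its own axis, which for cPDS reaches -4.19 at Eif5a.

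In growing oocytes, 8 of 45 members rose and 19 fell in Dhx36_sko against control, or 60%. Of 14081 genes 53.7% were called, 28.5% higher and 25.2% lower. With scaling by library size alone 10 members rose and 10 fell. Of all genes 4825 then rose and 2386 fell, in place of 4017 and 3549. Under that scaling the median change of all genes was 0.21 in place of 0.02, and that of the members -0.06 in place of -0.25. The median therefore lay below that of all genes by a like amount in both. No called member changed sign. The groups did not overlap in 8 members that were higher and 23 that were lower in sko, against 32.2% and 28.6% of all genes. Without growing control replicate 2 or 3, or without sko replicate 5 or 6, 5 members were called higher. Of all genes, 3657, 3962, 3522 and 3554 were then called higher, in place of 4017. The summed granulosa and cumulus genes were at 24.7 to 30.6 normalised CPM in control and at 79.7 to 84.5 in sko, with 4 of 8 tested higher, none lower and Ptx3 at 0 in both groups. Of that rise Fshr made the most, from a mean of 0.342 to 37.1, with Cyp19a1 from 9.28 to 20.1, Kitl from 7.92 to 13.4 and Nr5a2 from 5.70 to 8.72, while Inha (-0.65) and Hsd17b1 (-0.93) were not called. The part of these genes in the members' changes was not tested. The 10 oocyte markers summed to 36214 to 41031 in control and to 30002 to 35074 in sko, with 1 higher and 5 lower. Of the theca and stroma genes both of the 2 tested were higher, and of the immune, endothelial and blood genes 1 of 3 was higher and 2 were lower.

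By role, 2 of 13 eIF3 genes rose and 4 fell in growing sko, 1 of 5 eIF2B genes rose and 3 fell, and of the 5 genes of eIF4A, eIF4B and eIF4H 2 rose and 1 fell. The largest rises were those of Eif4h, Eif1a, Eif3k and Eif3a. Eif4h was at 37.3, 53.8 and 52.3 in control and at 127, 121 and 129 in sko, a log2 change of +1.40 ± 0.14 (adjusted p = 8.32e-07). Eif3a was at 55.5, 54.4 and 54.5 and then at 102, 124 and 122, a change of +1.08 ± 0.12 (adjusted p = 2.41e-06). Eif3k rose from 4.96, 7.46 and 7.10 to 15.7, 21.8 and 11.0 (+1.31 ± 0.23), and Eif1a from 2.19, 1.70 and 1.89 to 3.92, 5.52 and 5.45 (+1.36 ± 0.24). The last pair is low, with 51 to 79 counts a library for Eif1a in control. Eif4e, Eif4a1, Eif1ad and Eif2b1 rose by 0.44, 0.43, 0.41 and 0.35. The Eif4e call was lost without control replicate 2 or 3 or sko replicate 5 or 6 (adjusted p from 0.0790 to 0.112), the Eif1ad call without control replicate 2 or 3 or sko replicate 5 (0.0764 to 0.0809) and the Eif4a1 call without sko replicate 6 (0.0522). The Eif2b1 call was lost without control replicate 2 or 3 or any 1 sko library (0.0751 to 0.193), and with RLE factors (0.0596) and DESeq2 (0.0581).

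Among those that fell, Eif3g was at 418, 372 and 361 in control and at 157, 172 and 173 in sko, a log2 change of -1.20 ± 0.12 (adjusted p = 6.32e-07). Eif1ax, the highest member in growing control before correction for length, was at 1452, 1399 and 1421 and then at 684, 779 and 796, a change of -0.92 ± 0.12 (adjusted p = 1.01e-05). Eif2b4 was at 35.5, 36.4 and 32.7 and then at 15.3, 17.0 and 19.0 (-1.03 ± 0.13), while Snx17 on the other strand changed by -0.69. Eif3d (-0.98), Eif4g3 (-0.84), Eif5b (-0.82), Eif1b (-0.81), Eif3f (-0.72, 43 to 91 counts a library), Eif5a (-0.61), Eif2b2 (-0.60) and Eif6 (-0.57) fell by more than 0.5. Smaller falls were called for Eif2b3, Eif3j, Eif4e3, Eif2s2, Eif4b, Eif4g1, Eif2d and Eif4e2, from -0.49 to -0.36. The call of Eif2d was lost without control replicate 1 or 2 or sko replicate 5 or 6 (adjusted p from 0.0593 to 0.137), that of Eif4e2 without control replicate 1 or 3 or sko replicate 4 or 5 (0.0743 to 0.140) and that of Eif4g1 without control replicate 2 or 3 or sko replicate 4 or 6 (0.0591 to 0.110). Scaled by library size alone, these 8 smaller falls all missed the threshold (0.0575 to 0.345). The fall of Eif3f was not called without any 1 control library, without sko replicate 5 or 6 (0.0586 to 0.168), by DESeq2 (0.0609), with library size alone (0.137) or with no filter on low counts (0.0535).

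In the DRB experiment, the sko comparison set 3 rhau-sko libraries against 3 c libraries with the DRB agent as a term of the fit. Here 5 of 45 members rose and 13 fell, or 40.0%, where 36% of 16784 genes were called, 19.2% higher and 16.8% lower. The 2 experiments have no library in common, and 17 members were called in both, or 63.0% of the 27 growing calls and 94.4% of the 18 calls here, where among all genes the shared calls made 52.8% and 71.7%. Of these 17, 5 were higher in both, 11 were lower in both and Eif1a went in opposite directions. The groups did not overlap in 5 members that were higher and 15 that were lower in rhau-sko, against 24.7% and 23.5% of all genes. Among the 3939 genes called in both, 95.2% had the same direction. Without c with DRB replicate 3, 2 members were called higher and 7 lower in the DRB experiment, and with the 2 shallow libraries included 1 higher and 6 lower. Calls over all genes fell as well, from 3220 higher and 2823 lower. They were 2097 and 1581 of 18011 genes without c with DRB replicate 3, and 2358 and 1822 of 15887 with the shallow libraries. The granulosa and cumulus genes summed to 65.9 to 82.6 normalised CPM in c and to 113 to 152 in rhau-sko, with 4 of 8 tested higher, none lower and Amh at 0 in both groups. Most of this rise came from Cyp19a1, from a mean of 34.6 to 61.2, Fshr, from 1.34 to 23.5, and Nr5a2, from 21.7 to 36.6, while Kitl (-0.30) was not called. The 10 oocyte markers summed to 19074 to 20725 and to 15287 to 15626, with 7 lower and none higher. Of the theca and stroma genes 1 of 2 tested was higher. Of the immune, endothelial and blood genes 1 of 3 was higher, Ptprc from a mean of 0.0455 to 3.60, and 2 were lower, Cd68 and Pecam1. What part these lists had in the members' changes was not tested.

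**Figure D4:**
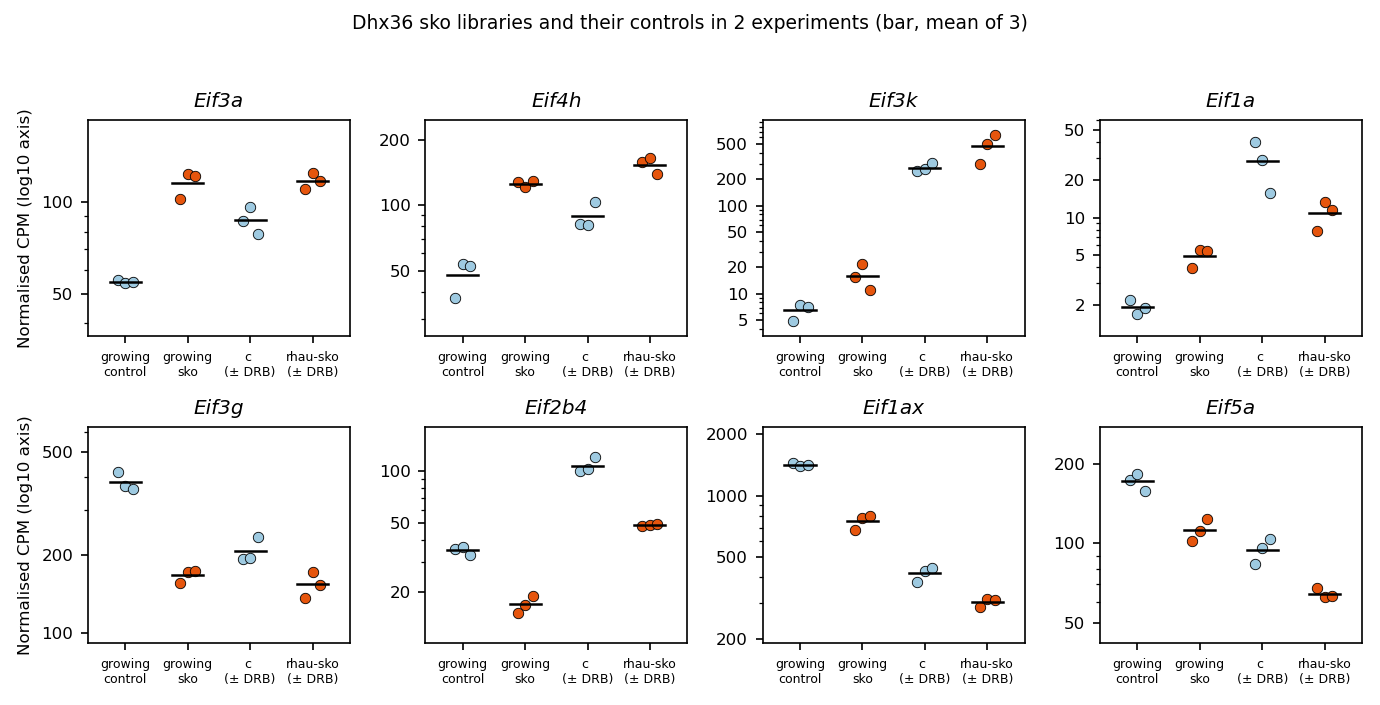
Normalised CPM (log10 axis, its range set for each gene) of 8 members in growing control and sko and in c and rhau-sko of the DRB experiment, each point 1 library and the bar the mean of 3 (libraries with and without DRB together). Eif3a, Eif4h and Eif3k are higher in sko in both experiments and Eif3g, Eif2b4, Eif1ax and Eif5a lower, while Eif1a is higher in growing sko and lower in rhau-sko.

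The members higher in both were Eif4h, Eif3k, Eif3a, Eif4e and Eif1ad. Eif4h was at 82.3 and 81.2 in c, at 103 in c with DRB, at 158 in rhau-sko and at 166 and 139 in rhau-sko with DRB, a log2 change of +0.76 ± 0.13 (adjusted p = 0.000958). Eif3a was at 87.1 and 96.6 in c, 78.5 in c with DRB, 111 in rhau-sko and 125 and 118 in rhau-sko with DRB (+0.45 ± 0.12). The Eif3a call was lost without c replicate 1 (adjusted p = 0.0546) and without c with DRB replicate 3 (0.230). Eif3k (+0.56) overlapped between the groups, with 296 in rhau-sko against 308 in c with DRB, and Eif4e and Eif1ad were at +0.45 and +0.55. Without c with DRB replicate 3 these 3 missed the threshold as well (adjusted p = 0.378 for Eif3k, 0.0910 for Eif4e and 0.0995 for Eif1ad).

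Of the members lower in both, Eif2b4 fell most here, at 99.7 and 103 in c, 119.6 in c with DRB, 48.5 in rhau-sko and 49.1 and 49.4 in rhau-sko with DRB, a log2 change of -1.17 ± 0.11 (adjusted p = 2.96e-05). Snx17 on the other strand changed by -0.80. Eif5a was at 83.4 and 96.1 in c, 104 in c with DRB, 67.8 in rhau-sko and 63.0 and 63.1 in rhau-sko with DRB (-0.57 ± 0.12, adjusted p = 0.00482). Eif3d (-0.76), Eif2b2 (-0.71), Eif3g (-0.51), Eif1ax (-0.51), Eif2d (-0.51), Eif1b (-0.49), Eif4g1 (-0.47), Eif2b3 (-0.36) and Eif4g3 (-0.34) were lower in both as well. Eif3c was called at -0.35 here and missed the threshold in growing sko (-0.29, adjusted p = 0.0507, and 0.0302 by DESeq2). Without c with DRB replicate 3, Eif5a, Eif3d, Eif2d, Eif1b, Eif4g1, Eif4g3 and Eif3c were not called (adjusted p from 0.0581 to 0.151). Eif2b3, Eif3c and Eif4g3 were lost as well without c replicate 1 or rhau-sko replicate 5, Eif2b3 and Eif4g3 without c replicate 2, Eif4g1 without c replicate 1 and Eif4g3 without rhau-sko with DRB replicate 8 (adjusted p from 0.0548 to 0.174).

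**Figure D5:**
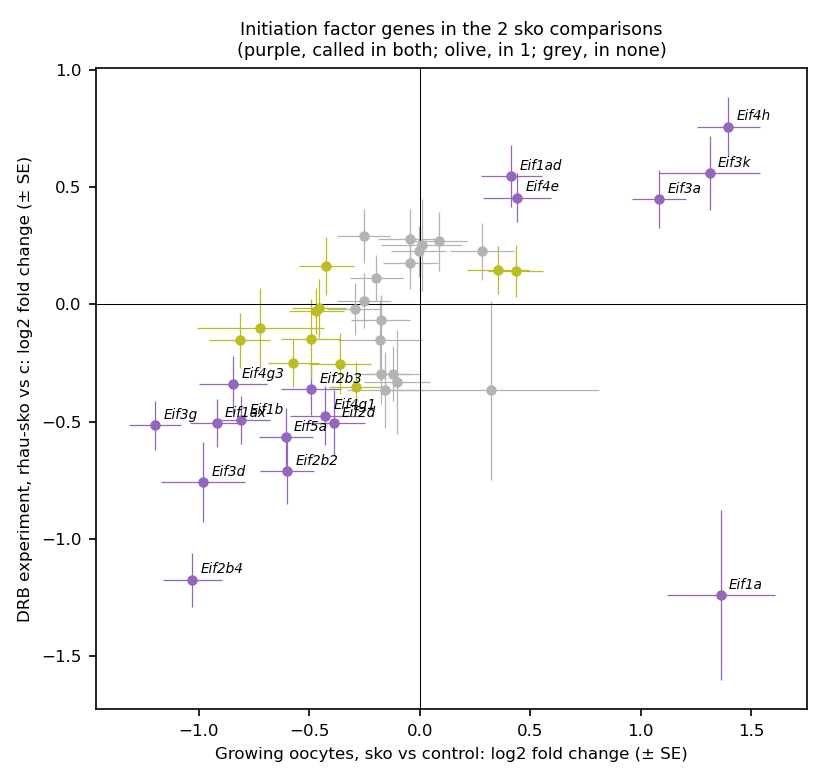
Log2 fold change (± SE) of the 45 tested members in growing sko against control (x axis) and in rhau-sko against c of the DRB experiment (y axis). Of the 17 members called in both (purple, named), 16 lie in the quadrants of equal direction and Eif1a does not.

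The difference between the 2 sko changes was tested in 1 fit over both experiments. It was called for 7 of 45 members, 4 higher and 3 lower in the DRB experiment, or 15.6%, where 12.5% of 17437 genes were called, 4.91% higher and 7.63% lower. Of the granulosa and cumulus genes 2 of 10 tested, Fshr and Kitl, were called lower. Eif1a gave the largest difference, -2.63 ± 0.43 (adjusted p = 0.000439). It was at 40.1 and 28.7 in c, 15.7 in c with DRB, 7.76 in rhau-sko and 13.2 and 11.6 in rhau-sko with DRB. Its fall there was -1.24 ± 0.36 (adjusted p = 0.0211) and was not called without the rhau-sko library, replicate 5 (-0.38, adjusted p = 0.313). Eif3a and Eif4h rose less than in growing oocytes, and Eif3g fell less. The count of members with a called difference was 2 without rhau-sko replicate 5 and 11 without growing control replicate 1, and it was 4 without c replicate 1, c replicate 2 or rhau-sko with DRB replicate 7. Of all genes, 857 higher and 1330 lower became 381 and 785 without rhau-sko replicate 5, and 1386 and 1124 without growing control replicate 1. Without c replicate 1 they were 621 and 1055, without c replicate 2 639 and 1098, and without rhau-sko with DRB replicate 7 703 and 1151.

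The agent DRB, tested over the same 6 libraries with sko as a term, gave no called member, where 0.0119% of all 16784 genes were called, 0.00596% higher and 0.00596% lower. At an unadjusted p under 0.05, 4 members were higher and 4 lower, against 6.04% and 6.46% of all genes. By DESeq2, 1 member was higher and 2 were lower, against 0.97% and 0.958% of the 24431 genes it was given. None of the 8 granulosa and cumulus genes tested was called. Libraries with and without DRB did not overlap in 3 members that were higher and 3 that were lower, against 5.5% and 4.82% of all genes. Eif4g2 was at 275 and 263 in c and 400.4 in rhau-sko without DRB, and at 239 in c and 230.2 and 241 in rhau-sko with it, a log2 change of -0.47 ± 0.13 (adjusted p = 0.202, and 0.0283 by DESeq2). The test of whether DRB acted differently in rhau-sko called no member either, where 0.033% of 18178 genes were called, 0.011% higher and 0.022% lower. At an unadjusted p under 0.05, 2 members were higher and 2 lower, against 4.83% and 3.38% of all genes, and none of 11 granulosa and cumulus genes was called. DESeq2 was not run for that test. With 1 library in c with DRB and 1 in rhau-sko, neither count shows that the agent left these genes alone.

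With Trim21 for 3 h, 2 of 45 members rose and 3 fell, or 11.1%, where 11.5% of 14191 genes were called, 6.26% higher and 5.23% lower. The share of members called thus lay near that of all genes, and the groups did not overlap in 8 members that were higher and 10 that were lower, against 15.2% and 14.9% of all genes. Eif3f was at 29.0, 28.2 and 30.8 in control and at 18.7, 18.2 and 17.4 with Trim21, a log2 change of -0.70 ± 0.14 (adjusted p = 0.00657). Eif5a2 was at 3.83, 4.53 and 5.40 and then at 1.85, 1.07 and 0.868, a change of -1.80 ± 0.35 (adjusted p = 0.00584). It rested on 79 to 90 counts a library in control and on 59, 8 and 20 with Trim21. Eif4e1b was at 76.1, 83.9 and 85.8 and then at 52.3, 63.7 and 57.5 (-0.51 ± 0.12, adjusted p = 0.0192). The oocyte cap-binding gene was thus lower with Trim21 and with cPDS, and it was not called in either sko comparison.

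Eif3j was at 36.9, 38.1 and 30.8 in the Trim controls and at 46.5, 46.5 and 66.7 with Trim21 (+0.60 ± 0.17, adjusted p = 0.0371). Eif2a was at 43.7, 36.3 and 40.1 and then at 54.8, 52.4 and 57.9 (+0.46 ± 0.13, adjusted p = 0.0363). Leaving out any of the 6 libraries ended the call of Eif2a (adjusted p from 0.0572 to 0.166). That of Eif3j was lost without control replicate 1 or 3 or Trim21 replicate 3 (0.0835 to 0.208), and that of Eif4e1b without control replicate 3 or Trim21 replicate 1 or 3 (0.0771 to 0.0917). Eif3f and Eif5a2 were called lower in each of 11 alternatives. Eif4g3 missed the threshold at -0.44 ± 0.13 (adjusted p = 0.0513) and passed it by DESeq2 (0.0230), with no filter on low counts (0.0184) and with the replicate number as a block (0.0305). Without control replicate 2, 8 members were called lower and 1 higher, where 931 of 14708 genes were lower and 1005 higher. Without control replicate 3 or Trim21 replicate 3, 2 members were called lower and none higher. Of all genes, 496 were then lower and 597 higher without control replicate 3, and 415 and 513 without Trim21 replicate 3. The granulosa and cumulus genes summed to 47.2 to 50.6 normalised CPM in control and to 68.8 to 77.6 with Trim21, with 1 of 5 tested higher and Amh and Foxl2 at 0 in both groups, and their part in these values was not tested.

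Across the 4 comparisons of 3 libraries against 3, 16 members were called in 3, or 35.6%, 14 in 2, or 31.1%, 11 in 1, or 24.4%, and 4 in none, or 8.89%. Of the 12798 genes tested in all 4, the shares were 19.4% in 3, 32.0% in 2, 31.8% in 1 and 14.0% in none, and 2.72% were called in all 4. The members called in none were Eif2s3x, Eif3b, Eif3i and Eif4a3. Eif1b, Eif2b2, Eif2b3, Eif2b4, Eif3d, Eif3g, Eif4g1 and Eif5a fell in both sko comparisons and with cPDS, or 17.8% of the members against 5.73% of those genes. Eif3k and Eif4e rose in all 3, or 4.44% against 4.97%. Eif1ad, Eif3a and Eif4h rose in both sko comparisons and fell with cPDS, or 6.67% against 2.59%, and Eif1ax did the reverse, as 3.54% of those genes did. None of these shares, nor those of single comparisons, was compared at equal abundance. Without c with DRB replicate 3, Eif1b, Eif3d, Eif4g1, Eif5a, Eif3k, Eif4e, Eif1ad and Eif3a lost their calls in the DRB experiment.

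Genes that act beside the initiation factors were read from lists, to be set against the shares of all genes called, which were 50.8% with cPDS, 53.7% in growing sko, 36% for sko in the DRB experiment and 11.5% with Trim21. Calls of these genes come from the main fit alone. Unlike the members, they were not followed through the alternatives, and their exons were not checked for bases shared with other genes. Among 15 helpers without the Eif name, 1 rose and 10 fell with cPDS. Ddx3x, an RNA helicase, went from a mean of 404 to 164 normalised CPM (log2 change -1.30 ± 0.06), Dhx29, a helicase that aids scanning of structured leaders, from 96.6 to 33.5 (-1.53 ± 0.08), and Abcf1 fell by 1.68. In growing sko 2 of the 15 rose and 5 fell, in the DRB experiment 4 rose and 2 fell, and with Trim21 none was called. Pabpc1l, an oocyte poly(A)-binding protein, fell in both sko comparisons (by 1.22 and 0.88), and Paip2, a repressor of poly(A)-binding proteins, rose in both (by 0.34 and 0.55). Of the 16 genes of mTOR and MNK signalling, which passes growth signals to eIF4E and its binding proteins, 3 rose and 7 fell with cPDS, 7 rose and 2 fell in growing sko, and 4 rose and 2 fell in the DRB experiment. Mknk1, a kinase of eIF4E, rose by 0.63 and 0.70 in the sko comparisons and fell by 0.75 with cPDS. Rps6kb1, which encodes the S6 kinase, went from 80.1 to 20.8 with cPDS (-1.94 ± 0.08).

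Of the 4 kinases of eIF2 alpha, which slow initiation under stress, 2 of 3 tested fell in growing sko, 3 of 4 fell in the DRB experiment and none was called with cPDS. Eif2ak1 (-0.52 and -0.56) and Eif2ak4 (-1.14 and -0.49) fell in both sko comparisons, and Eif2ak3 fell by 1.55 with Trim21. Among genes downstream of eIF2, 2 of 6 tested rose in growing sko, the transcription factor genes Atf4 (+0.39) and Ddit3 (+0.43), and 2 fell. In the DRB experiment none of 7 rose and 3 fell. Ppp1r15b, a phosphatase subunit that reverses the mark on eIF2, fell by 1.66 and 1.34 in the sko comparisons, and Ppp1r15a, its stress-induced relative, fell by 0.31 and 0.81 there and by 2.38 with cPDS. With cPDS 1 of 6 genes of that list rose, Atf4 at +0.52, and 4 fell. Of the cap-binding repressors 1 of 6 tested rose and 1 fell in growing sko, 1 of 7 rose and none fell in the DRB experiment, and 3 of 7 rose and 1 fell with cPDS. Eif4ebp1 rose by 2.63 in growing sko and by 0.98 in the DRB experiment, and Eif4enif1 fell by 0.36 in growing sko. With cPDS Cyfip1 (+0.49), Cyfip2 (+0.23) and Eif4enif1 (+0.31) rose and Gigyf2 fell by 3.07. Of 8 elongation factors, 4 fell and none rose in growing sko, 3 fell and none rose in the DRB experiment, and 4 rose and 4 fell with cPDS, where Eef2 went from 55.5 to 8.67 (-2.68 ± 0.10). With Trim21 1 of the 8 fell, Eef1e1 by 0.50, and apart from it and Eif2ak3 no gene of these lists was called. Of 6 termination and recycling factors, 2 rose and 1 fell in growing sko, 1 rose and 2 fell in the DRB experiment, and 3 rose and 2 fell with cPDS.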

How the data were processed

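The authors deposited 2 tables of raw counts (reads per gene), in the layout of featureCounts, per the file headers. Mouse build mm9 is named in the submitters' processing notes, as are featureCounts 2.0.1, STAR 2.5.2b, HISAT2 2.1.0, cutadapt 1.15 and fastp 0.21.0. How strand and multiply placed reads were handled is not given there. Members are matched between the tables by identical exon coordinates. Of 26 libraries 24 were used, with a minimum of 200000 counts.

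Each comparison was fitted on its own libraries with edgeR 4.0.16 in R 4.3.3: filterByExpr (minimum count 10), TMM factors, a quasi-likelihood test and Benjamini-Hochberg adjustment over every gene tested (threshold 0.05). SE is the absolute log2 change over the square root of F. The DRB experiment had additive terms for sko and DRB. Normalised CPM, on TMM-scaled library sizes, are comparable within an experiment. Alternatives were library size alone, RLE factors, no filter, DESeq2 1.42.0, leaving out each library, a replicate block, all 8 libraries of the DRB experiment and 1 term per group in it.

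The rule named all called members, or the 25 with the smallest p, and 13 members in every comparison, called or not. The text did not follow it for uncalled members. Of the 13, changes that were not called are given only for Eif4g2 with DRB and for Eif4g3 with cPDS and Trim21. Eif4g2 with DRB and Eif4g3 with Trim21 are cases that passed the threshold by DESeq2. With cPDS and in growing sko the other called members, and Eif3c and Eif4a3 where not called, were added after their values were seen. The members, lists and tests were chosen with earlier results of these data known.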

Additional observations from a re-analysis of the deposited data

Results flagged for a closer look

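In 7 members the sko change differed between the DRB experiment and growing oocytes by the test of the difference itself (edgeR quasi-likelihood test over 12 libraries). The value given for each is the log2 change in the DRB experiment minus that in growing oocytes. For Eif1a it was -2.63 (adjusted p = 0.000439), with opposite directions in the 2 experiments. For Eif4h it was -0.67 (adjusted p = 0.0304) and for Eif3a -0.66 (adjusted p = 0.0154), both higher in sko in each experiment. For Eif3g it was 0.65 (adjusted p = 0.00992), with a fall in each experiment. For Eif5b it was 0.63 (adjusted p = 0.0339) and for Eif4b 0.55 (adjusted p = 0.0454), each called lower in growing sko and not called in the DRB experiment. For Eif3e it was 0.52 (adjusted p = 0.0473), and neither experiment gave a call of its own. Eif1a kept its call without any 1 of the 12 libraries. Eif3g lost it without rhau-sko replicate 5 (adjusted p = 0.0871). The other 5 lost it without several libraries, with adjusted p from 0.0521 to 0.399. With scaling by library size alone Eif5b, Eif4b and Eif3e were not called (adjusted p = 0.161, 0.221 and 0.168). No filter on low counts ended the calls of Eif3e (0.0732) and Eif4b (0.0533), and RLE factors that of Eif4h (0.0599). The experiments also differ in everything else that separates them, which cannot be told apart from the difference in sko change.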

How the results depend on the processing

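Over all alternatives no called member changed direction, nor did the few uncalled members given with values. Of their values, 951 stayed on their side of the threshold, 149 lost and 8 gained a call. The other uncalled members were left out of this count, and some did change sign. In growing sko, 12 of the 45 members had a positive change in the main fit and 20 with library size alone. In growing sko, scaling by library size alone left 10 members lower, and of all genes 2386 in place of 3549. In the DRB experiment, all 8 libraries gave 1 higher and 6 lower for sko, and 1 term per group 2 and 7. For DRB, no filter and DESeq2 each gave 1 higher (Eif3k) and 2 lower (Eif4g2 and Eif5). Of all 24431 genes, 254 were then higher and 238 lower with no filter, and 237 and 234 by DESeq2. For the interaction, no filter gave 1 higher (Eif1a). With Trim21, DESeq2 gave 5 lower, and 867 of the 22568 genes it was given. For the difference between the sko changes, library size alone gave 1 higher and no filter 2, and of all genes 402 and 967. The causes were not tested. Leaving out 1 library gave 5 to 9 higher and 16 to 19 lower in growing sko, 2 to 6 and 7 to 13 for sko in the DRB experiment, 0 to 2 higher for the interaction, 12 to 14 and 22 to 24 with cPDS, 0 to 1 and 2 to 8 with Trim21, and 0 to 9 and 1 to 3 for the difference. Of all genes, leaving out 1 library gave 3522 to 4049 higher and 3101 to 3638 lower in growing sko. It gave 1990 to 3130 and 1581 to 2936 for sko in the DRB experiment, and 3066 to 3756 and 3946 to 4322 with cPDS. With Trim21 it gave 513 to 1005 and 415 to 931, and for the difference 381 to 1386 and 785 to 1419. The replicate block gave 12 higher and 22 lower with cPDS (Eif2s1, Eif1a and Eif3c lost, adjusted p = 0.0551, 0.0609 and 0.0920) and 3 and 4 with Trim21. Of all genes the block gave 3404 and 4164 with cPDS and 964 and 803 with Trim21. Same-numbered libraries deviated together with r of -0.059, -0.033 and -0.037 (cPDS) and 0.075, 0.091 and -0.049 (Trim21), so the numbers were not taken to pair them. Groups of 1 library were assumed to vary like the others. Members with few counts, such as Eif5a2, are the least precise.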
